A study of Mus musculus with 26 samples.

Results

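Desmosome gene expression was measured in primary mouse keratinocytes, the cells of the epidermis, by bulk RNA sequencing. The genes were taken by symbol from the count table and comprise 3 desmogleins (*Dsg1a*, *Dsg1b*, *Dsg3*), 3 desmocollins (*Dsc1*, *Dsc2*, *Dsc3*), the plaque genes *Dsp*, *Jup* and *Pkp1*, and the tetraspan gene *Perp*. These are 10 of the 56738 symbols in the table, and all 10 were among the 16893 genes with a mean normalized count over 10. Cells were cultured from WT and *Pla2g4d*-deficient (KO) mice, 5 and 8 animals respectively, at the age of 2 days. The KO line was backcrossed to C57BL/6NJ and then bred homozygous, and the sex of the pups was not considered. The paper does not give the line or litters of the WT mice, so genotype cannot be told apart from line or litter. KO mice carry a CRISPR deletion of exon 3 of *Pla2g4d*, which encodes a cytosolic phospholipase and transacylase of keratinocytes. All cultures were kept for 4 days in medium with 0.06 mM CaCl2, and wells of the same animal were combined. Cells of every mouse were then left under basal conditions or treated for 24 h with IL17A and TNFα, cytokines of inflamed skin, each at 20 ng/ml. This gave 4 groups, WT and KO under basal conditions and WT and KO with IL17A and TNFα, with 26 libraries in all.

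Desmosomes are the junctions that rivet neighbouring keratinocytes together and anchor their keratin filaments. Desmogleins and desmocollins are calcium-dependent cadherins that bind across the cell gap. Inside the cell, plakoglobin (*Jup*) and plakophilin 1 (*Pkp1*) bind the cadherin tails and desmoplakin (*Dsp*), which holds the keratin filaments. *Perp* encodes a membrane protein that stabilizes desmosomes in stratified epithelia. The cadherins change as cells leave the basal layer, where *Dsg3* and *Dsc3* are the typical isoforms, while *Dsg1* and *Dsc1* mark the suprabasal layers. Mice carry several copies of *Dsg1*, of which *Dsg1a* and *Dsg1b* are considered here. *Dsc2* is the desmocollin of simple epithelia and heart and is also found in epidermis.

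The plaque genes are spread over the genome. *Dsp* lies on chr13:38335230-38382553 (plus strand), *Jup* on chr11:100259784-100291103 (minus strand), *Pkp1* on chr1:135799133-135846945 (minus strand) and *Perp* on chr10:18720715-18732821 (plus strand). The 250 bases before the transcription start of the canonical transcript are shown for *Dsp* and *Jup*, plaque genes that fell together with cytokines. The windows are chr13:38334980-38335229 and chr11:100288662-100288911, read from GRCm39 on each gene's own strand. Capitals mark matches to the SP1 motif GGGCGG on either strand and, at the end of the *Jup* window, 2 overlapping matches to the NF-kB motif.
Dsp: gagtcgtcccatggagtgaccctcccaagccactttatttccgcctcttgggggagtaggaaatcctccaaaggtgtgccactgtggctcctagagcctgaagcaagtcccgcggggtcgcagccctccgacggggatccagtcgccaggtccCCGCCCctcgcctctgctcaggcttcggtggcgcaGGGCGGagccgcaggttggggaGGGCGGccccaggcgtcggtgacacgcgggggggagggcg
Jup: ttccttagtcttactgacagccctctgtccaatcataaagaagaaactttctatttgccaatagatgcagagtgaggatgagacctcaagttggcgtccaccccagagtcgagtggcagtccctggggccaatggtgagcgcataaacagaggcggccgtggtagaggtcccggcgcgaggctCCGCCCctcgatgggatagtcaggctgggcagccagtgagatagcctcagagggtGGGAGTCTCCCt
The SP1 motif was found in 5 of the 10 desmosome promoters (*Dsc2*, *Dsc3*, *Dsp*, *Jup* and *Pkp1*), against 36.32% of 21770 promoters of protein-coding genes. The NF-kB motif was found in *Jup* alone among the 10, against 7.621% of all promoters. No window held the AP-1 motif TGANTCA, the C/EBP motif TTGCNNCAA, the GRHL motif AACCNGTT or TATAAA, which occurred in 6.174%, 1.92%, 1.791% and 11.92% of all promoters. Matches of different motifs did not overlap. These matches describe letters in a short window and are not measured binding sites.

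Library totals ranged from 42072745 to 78102858 counts. The cultures carried keratinocyte markers at a summed level of 30960 to 43962 CPM (counts scaled to library size and normalized by TMM), whereas the summed marker lists of fibroblasts, immune cells and endothelial cells did not exceed 7.43, 16.5 and 5.96 CPM in any library. Both endothelial genes that could be tested (*Pecam1* and *Kdr*) were called higher with cytokines in WT and in KO, and *Pecam1* was also called higher in KO than in WT under basal conditions (0.95 on the log2 scale, adjusted p = 0.0195, edgeR). The Merkel cell list summed to 2.74 to 26.3 CPM. Its keratins *Krt8* (1.41, adjusted p = 0.0291, edgeR) and *Krt18* (1.37, adjusted p = 0.00744) were called higher in KO than in WT under basal conditions, and *Krt18* was called higher with cytokines in both genotypes, whereas *Krt20* and *Atoh1* did not exceed 0.99 and 0.804 CPM in any library. The part of these cells in the desmosome results was not tested. The melanocyte list was higher, at 422 to 601 CPM in WT and 458 to 619 CPM in KO under basal conditions, and at 325 to 465.9 and 298 to 395 CPM with cytokines. *Pla2g4d* itself averaged 3.35 CPM in WT and 2.06 CPM in KO under basal conditions, and 52.2 and 38.1 CPM with cytokines. Gene-level counts include the exons left in the KO and so do not check the deletion. In a principal component analysis over all tested genes, the untreated libraries of WT replicate 2 and KO replicate 4 and the treated library of KO replicate 8 lay apart on the second component, at -67.0, -84.5 and -32.8, against -13.4 to 35.6 in the other libraries. Results that change without these mice are given with and without them.

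All 6 cadherin genes lie in a single cluster on chromosome 18 (GRCm39), with the desmocollins on the minus strand between 20093987 (*Dsc3*) and 20247928 (*Dsc1*), and the desmogleins on the plus strand from 20443868 (*Dsg1a*) through 20509781 (*Dsg1b*) to 20680516 (*Dsg3*). The coding sequences of *Dsg1a* and *Dsg1b* were identical at 96.96% of aligned bases, and their proteins at 95.45% of residues. By contrast, *Dsg1a* and *Dsg3* proteins shared 47.48% of residues, *Dsc1* and *Dsc3* 53.08%, and *Dsc2* and *Dsc3* 61.01%. Of all stretches of 150 bases in the *Dsg1a* transcript, 18.11% also occurred in another listed transcript, as did 23.74% of those in *Dsg1b* and 0% of those in the other 8 genes. A read within such a stretch cannot by itself be assigned to a single *Dsg1* copy, although the other read of its pair may differ between copies. How such reads were counted was not given in the sources used here. Values of *Dsg1a* and *Dsg1b* are therefore uncertain to an extent that was not measured. Exons of annotated genes on the opposite strand covered 3.588% of the exon bases of *Dsg1a*, 7.33% of *Dsg1b*, 1.533% of *Dsg3* and 5.557% of *Dsp*.

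The desmosome genes spanned a wide range of levels, which are compared here as CPM per kb of exons. In WT under basal conditions the order was *Perp* (1878 ± 264, SD, n = 5), *Dsp* (869 ± 94.8), *Pkp1* (444 ± 21.0), *Dsc3* (201 ± 19.1), *Jup* (201 ± 21.1), *Dsg3* (173 ± 9.81), *Dsc1* (66.0 ± 14.6), *Dsg1a* (51.4 ± 10.2), *Dsg1b* (46.8 ± 10.2) and *Dsc2* (15.4 ± 2.90). The ranges of *Dsc3*, *Jup* and *Dsg3* overlapped, as did those of *Dsc1*, *Dsg1a* and *Dsg1b*. The level of *Jup* per kb depends on the length used, since its exons together cover 8884 bases but its longest transcript has 4144. By longest transcript or by coding exons, *Jup* ranked 4 and *Dsc3* ranked 5. By coding exons, *Pkp1* ranked 2 and *Dsp* ranked 3. The typical basal-layer cadherins were thus the most abundant among the 3 desmogleins and the 3 desmocollins, and *Dsc2* was the least abundant of all. With IL17A and TNFα the order below the upper 3 places changed in both genotypes. *Dsg3* moved from rank 6 to 4 and *Dsc3* from 4 to 6 in WT, and in KO *Dsg3* moved from 5 to 4 and *Jup* from 4 to 5. *Dsc2* rose to rank 7 with 51.1 ± 8.14 CPM per kb in WT and 49.8 ± 5.18 in KO (n = 8), followed by *Dsg1b*, *Dsc1* and *Dsg1a*, which was last at 4.14 ± 0.822 and 1.96 ± 0.779. The upper 3 places stayed with *Perp*, *Dsp* and *Pkp1* in every group.

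**Figure D1:**
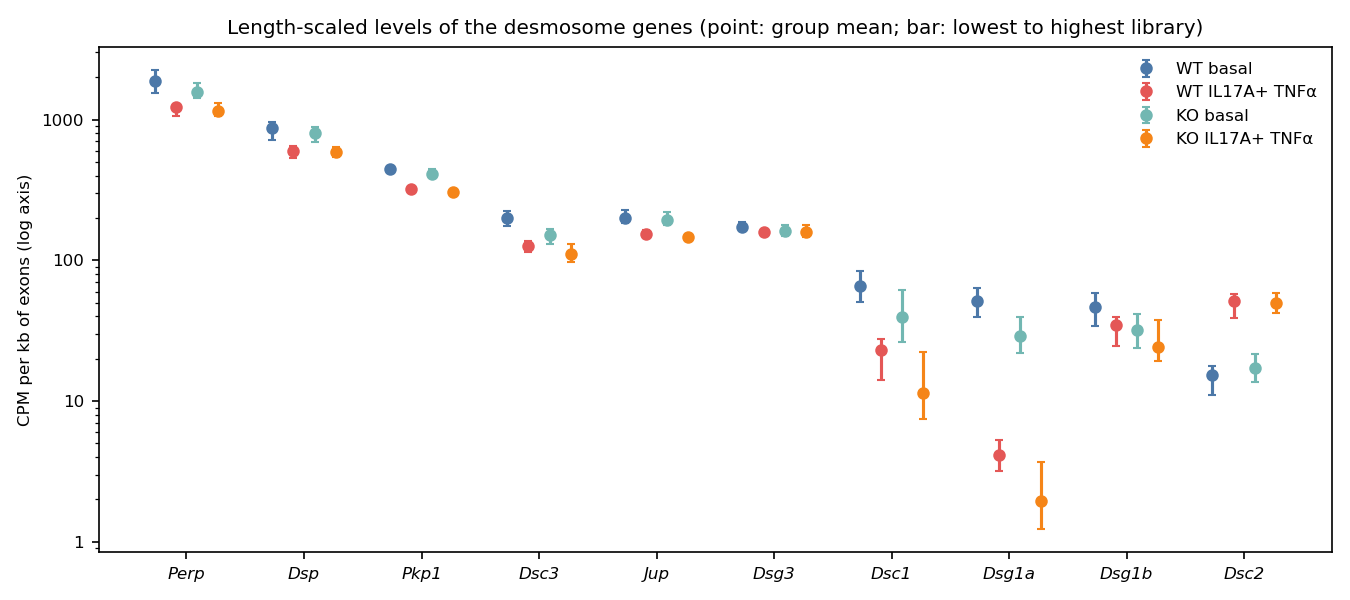
Levels of the 10 desmosome genes in CPM per kb of exons on a log axis, ordered by the WT mean under basal conditions. Points are group means and bars run from the lowest to the highest library (5 WT and 8 KO mice). With IL17A and TNFα *Dsc2* moved from the last to the seventh place and *Dsg1a* to the last.

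Treatment with IL17A and TNFα changed the desmosome genes broadly in WT keratinocytes. In edgeR's quasi-likelihood test, adjusted over all tested genes by Benjamini and Hochberg's method, 9 of 10 genes were called lower (adjusted p under 0.1) and *Dsc2* was called higher. Over all genes, 18% were called lower and 18.8% higher. When a fold change over 1.5 was also required, 4 genes remained lower (*Dsg1a*, *Dsc1*, *Dsc3* and *Perp*), and *Dsc2* remained higher, against 5.26% and 8.65% of all genes. In KO keratinocytes 8 genes were lower and *Dsc2* higher, against 18.1% and 17.7% of all genes, and *Dsg3* was not called. With the fold threshold, *Dsg1a* and *Dsc1* were lower and *Dsc2* higher in KO, against 4.55% and 6.33% of all genes. The median log2 fold change of the 10 genes was -0.51 in WT and -0.43 in KO, whereas it was 0.01 and 0.00 over all genes. The fall and the rise of each gene concern its share of the counted RNA of a culture. A change in the number of cells that express a gene cannot be told apart from a change in RNA per cell.

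**Figure D2:**
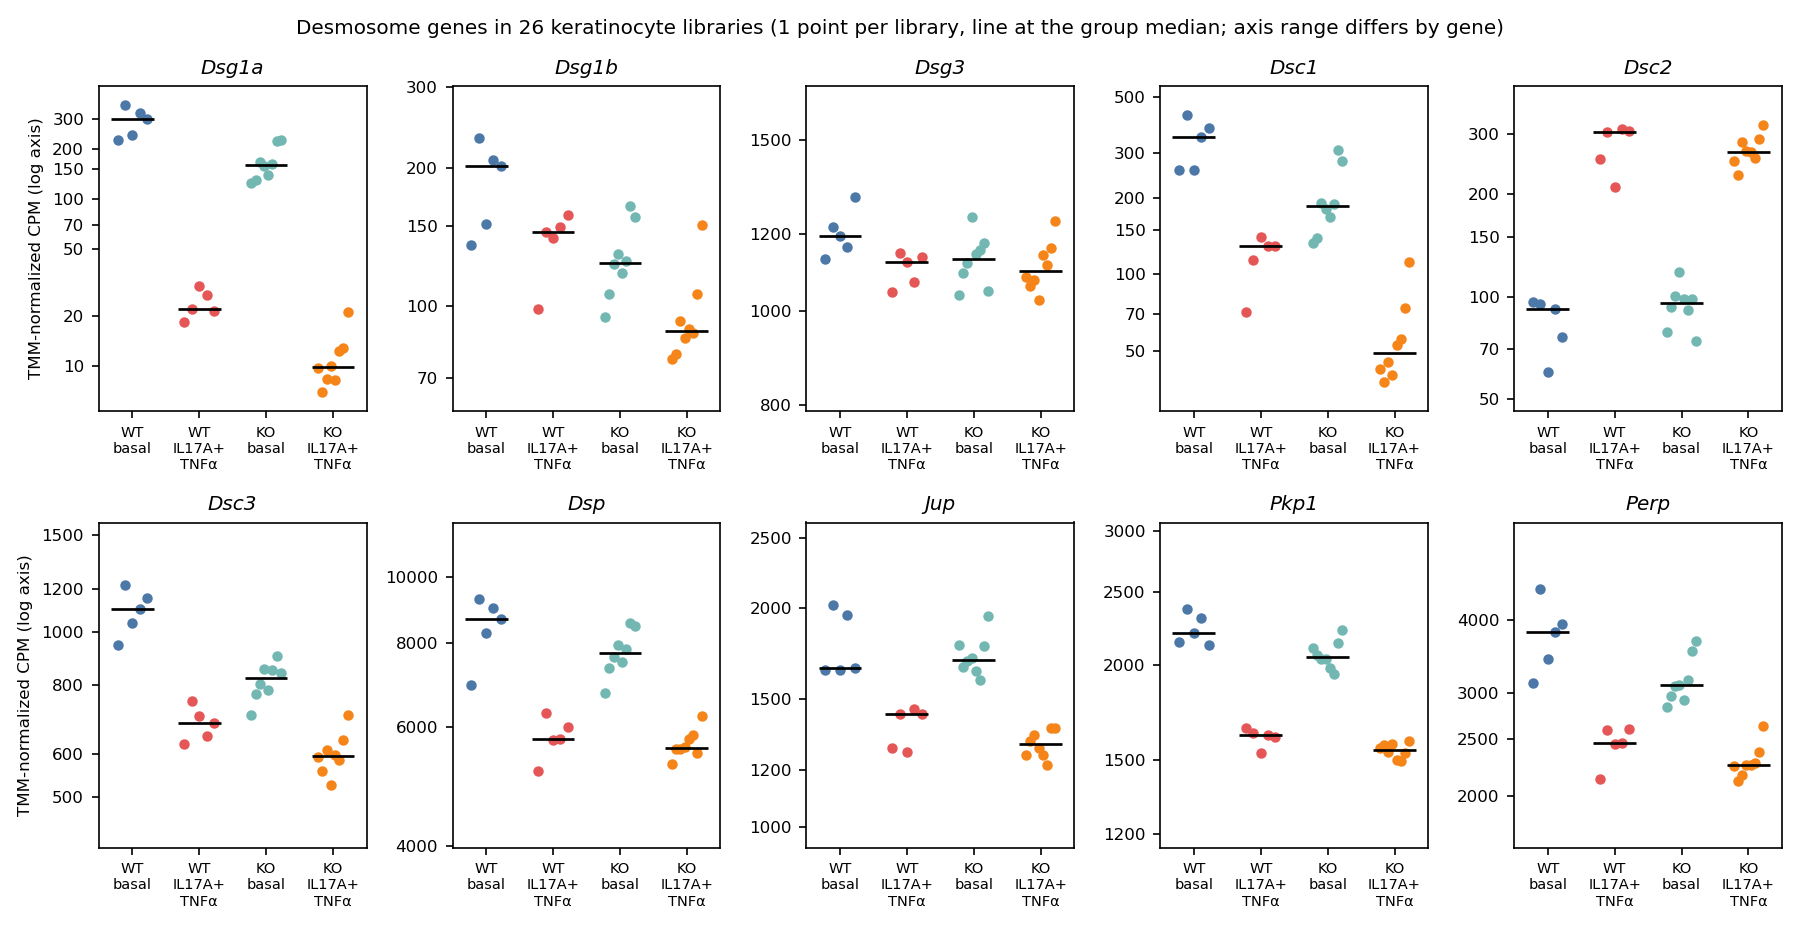
TMM-normalized CPM of each desmosome gene in all 26 libraries on log axes whose range differs by gene, with 1 point per library and a line at the group median. *Dsg1a* fell with cytokines to 18.2 to 30.1 CPM in WT and 6.96 to 20.9 CPM in KO, *Dsc2* rose, and *Dsg3* stayed between 1025 and 1311 CPM throughout.

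*Dsg1a*, a suprabasal desmoglein, showed the strongest fall. In WT under basal conditions the 5 mice had 226.5, 364.3, 241.2, 326.3 and 301.6 CPM, and the same mice had 18.2, 21.8, 30.1, 26.4 and 21.3 CPM with cytokines. In KO the lowest, median and highest levels were 124, 160 and 225 CPM under basal conditions and 6.96, 9.84 and 20.9 CPM with cytokines. The treated and untreated libraries did not overlap in either genotype. The log2 fold change was -3.63 (SE 0.23, adjusted p = 3.08e-13, edgeR) in WT and -3.89 (SE 0.19, adjusted p = 5.3e-16) in KO. All 13 mice showed the fall, which ranged from -4.17 to -2.96 on the log2 scale within a mouse.

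The near-identical copy *Dsg1b* changed far less. Its levels in the 5 WT mice were 136.1, 232.3, 151.0, 207.9 and 202.5 CPM under basal conditions and 98.5, 145.0, 141.0, 149.2 and 157.8 CPM with cytokines. In KO they were 94.8, 125 and 165 CPM (lowest, median, highest) under basal conditions and 76.9, 88.5 and 150 CPM with cytokines. Groups overlapped in both genotypes, although the level was lower with cytokines in each of the 13 mice. The log2 fold change was -0.43 (SE 0.17, adjusted p = 0.052, edgeR) in WT and -0.41 (SE 0.13, adjusted p = 0.018) in KO. The WT call was lost without WT replicate 2 (adjusted p = 0.178) or without WT replicate 4 (adjusted p = 0.122). The ratio of *Dsg1a* to *Dsg1b* counts turned over. It was 1.49 to 1.66 in WT and 1.17 to 1.43 in KO under basal conditions, and 0.135 to 0.213 in WT and 0.0884 to 0.139 in KO with cytokines. The promoter windows of both copies were identical at 93.8% of 242 aligned bases.

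*Dsg3*, the desmoglein of the basal layer, was nearly level. WT mice had 1131, 1221, 1195, 1165 and 1311 CPM under basal conditions and 1045, 1148, 1123, 1070 and 1137 CPM with cytokines. KO mice had 1038, 1132 and 1249 CPM (lowest, median, highest) and 1025, 1100 and 1237 CPM. Groups overlapped in both genotypes. The log2 fold change was -0.12 (SE 0.05, adjusted p = 0.0762, edgeR) in WT, and the call was lost without WT replicate 2, 3, 4 or 5 (adjusted p up to 0.222) and with no filter on low counts (0.138). In KO the log2 fold change was -0.02 (SE 0.04, adjusted p = 0.785), and its sign turned to 0.02 without KO replicate 4.

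Among the desmocollins, *Dsc1* of the suprabasal layers fell and *Dsc2* rose. *Dsc1* levels in the 5 WT mice were 258.8, 424.5, 257.0, 347.7 and 376.8 CPM under basal conditions and 71.2, 113.6, 139.8, 129.3 and 128.8 CPM with cytokines. In KO they were 133, 185 and 310 CPM (lowest, median, highest) under basal conditions and 37.7, 49.1 and 112 CPM with cytokines. No treated library reached an untreated library of its genotype. The log2 fold change of *Dsc1* was -1.51 (SE 0.26, adjusted p = 2.86e-05, edgeR) in WT and -1.79 (SE 0.21, adjusted p = 4.85e-08) in KO.

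*Dsc2* levels in WT were 96.3, 95.2, 59.8, 91.9 and 75.7 CPM under basal conditions and 254.4, 305.4, 210.5, 311.0 and 307.7 CPM with cytokines. In KO they were 74.1, 95.6 and 118 CPM (lowest, median, highest) and 229, 267 and 321 CPM. *Dsc2* was higher in every treated library than in any untreated library. The log2 fold change was 1.73 (SE 0.13, adjusted p = 7.07e-12, edgeR) in WT and 1.53 (SE 0.10, adjusted p = 4.71e-13) in KO. *Dsc1* counts exceeded *Dsc2* counts by 2.69 to 4.98 times in WT and 1.496 to 3.79 times in KO under basal conditions. With cytokines the ratio of *Dsc1* to *Dsc2* was 0.280 to 0.664 in WT and 0.150 to 0.350 in KO.

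*Dsc3*, the desmocollin typical of the basal layer, fell moderately. WT mice had 948.7, 1217.6, 1039.9, 1101.3 and 1152.0 CPM under basal conditions and 625.1, 747.4, 704.4, 647.8 and 683.3 CPM with cytokines. KO mice had 705, 823 and 903 CPM (lowest, median, highest) and 526.4, 594 and 708 CPM. The groups were separate in WT and overlapped in KO, and each of the 13 mice went down. The log2 fold change was -0.68 (SE 0.07, adjusted p = 1.32e-08, edgeR) in WT and -0.44 (SE 0.06, adjusted p = 4.33e-07) in KO.

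The plaque genes and *Perp* fell together and by smaller amounts. *Dsp*, which links the plaque to keratin filaments, had 6928, 9279, 8283, 9004 and 8669 CPM in WT under basal conditions and 5165, 6300, 5746, 5762 and 6004 CPM with cytokines. In KO it had 6740, 7720 and 8545 CPM (lowest, median, highest) and 5284, 5582 and 6219 CPM. *Pkp1* had 2126 to 2371 CPM in WT and 1950 to 2224 CPM in KO under basal conditions, and 1533 to 1655 and 1496 to 1590 CPM with cytokines. *Jup* had 1644 to 2018 CPM in WT and 1595 to 1953 CPM in KO under basal conditions, and 1271 to 1452 and 1220 to 1371 CPM with cytokines. *Perp* had 3118 to 4516 CPM in WT and 2843 to 3676 CPM in KO under basal conditions, and 2136 to 2600 and 2121 to 2639 CPM with cytokines. For all 4 genes, the treated and untreated libraries were separate in both genotypes. The share of all tested genes whose libraries separate in this way was not counted. The log2 fold changes in WT were -0.54 for *Dsp* (SE 0.07), -0.38 for *Jup* (SE 0.06), -0.47 for *Pkp1* (SE 0.04) and -0.62 for *Perp* (SE 0.08), and those in KO were -0.45 (SE 0.05), -0.41 (SE 0.05), -0.42 (SE 0.03) and -0.46 (SE 0.06). The adjusted p (edgeR) was at most 1.4e-05 among these 8 tests. Within a mouse these 4 genes fell by 0.21 to 0.80 on the log2 scale.

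**Figure D3:**
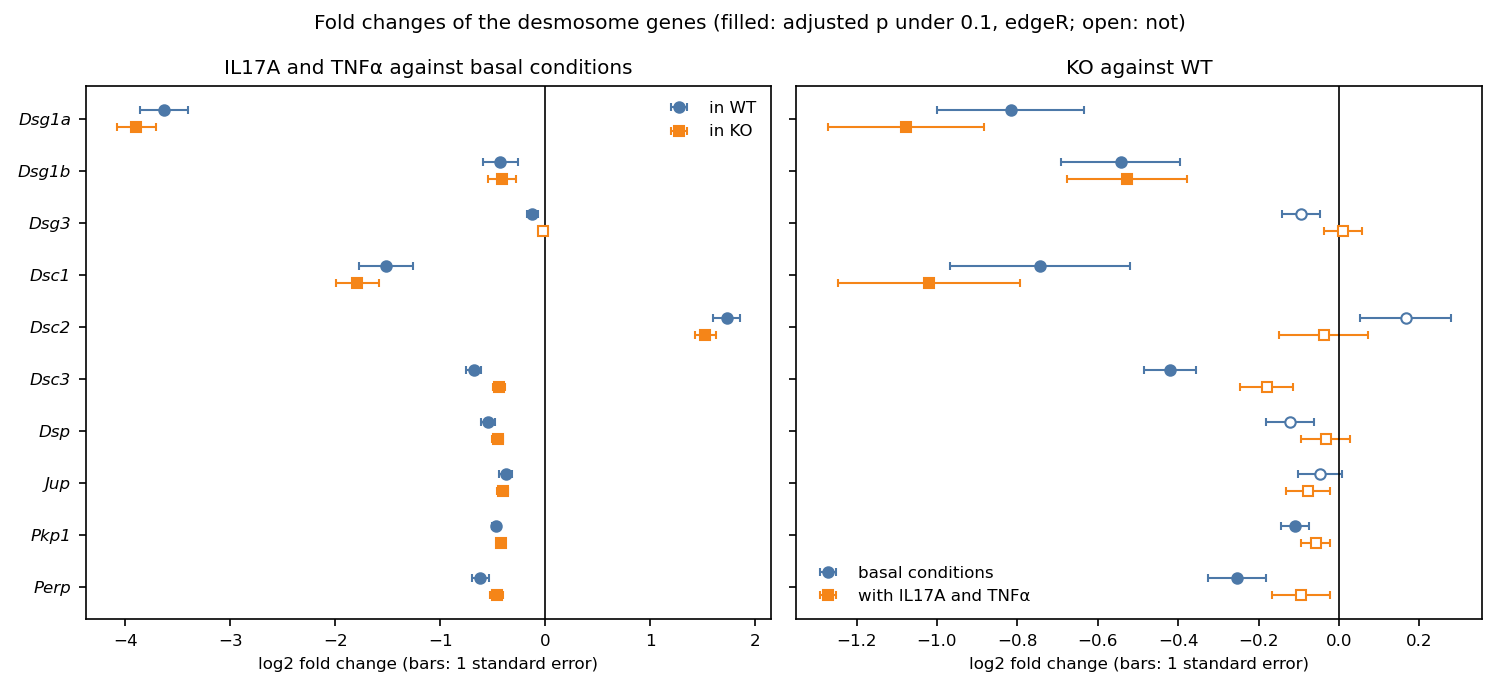
Log2 fold changes of the 10 desmosome genes with bars of 1 standard error, for cytokines against basal conditions in WT and KO (left) and KO against WT under basal conditions and with cytokines (right). Filled symbols have an adjusted p under 0.1 by edgeR. *Dsg1a* reached -3.63 and -3.89 with cytokines, *Dsc2* was the only gene above 1, and *Dsg1a* and *Dsc1* had the lowest values of KO against WT.

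To compare suprabasal with basal isoforms directly, ratios were formed within each library and tested by exact permutation over mice (two-sided, 10 tests adjusted together). *Dsg1a* and *Dsg1b* counts together made up 32.1% to 48.9% of the *Dsg3* counts in WT under basal conditions and 11.2% to 16.4% with cytokines. In KO they made up 21.1% to 36.4% and 7.99% to 13.8%. The log2 ratio fell by 1.43 in WT (SD of the changes 0.24, lower in 5 of 5 mice, exact p = 0.0625, adjusted p = 0.0751), where 0.0625 is the smallest p that 5 mice allow. It fell by 1.44 in KO (SD 0.11, lower in 8 of 8 mice, exact p = 0.00781, adjusted p = 0.013), again the smallest p possible. The fall of the ratio did not differ detectably between genotypes (log2 difference -0.01, SE 0.12, exact p = 0.908). With *Dsg1a* alone over *Dsg3*, however, the fall was larger in KO by 0.42 on the log2 scale (adjusted p = 0.0533, exact permutation). With *Dsg1b* alone the fall did not differ detectably between genotypes. *Dsg1a* itself was not called for the interaction of genotype and treatment (adjusted p 0.637 to 0.977 with 1 mouse left out, edgeR).

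The *Dsc1* to *Dsc3* ratio moved in the same direction. *Dsc1* counts were 24.7% to 34.9% of the *Dsc3* counts in WT and 18.04% to 34.3% in KO under basal conditions, and 11.4% to 20.0% and 6.74% to 15.8% with cytokines. The log2 ratio fell by 0.85 in WT (SD 0.39, 5 of 5 mice, exact p = 0.0625, adjusted p = 0.0751) and by 1.39 in KO (SD 0.19, 8 of 8 mice, exact p = 0.00781, adjusted p = 0.013). The fall was larger in KO by 0.54 (SE 0.19, exact p = 0.00466, adjusted p = 0.013, permutation of genotypes over 13 mice). Over the alternatives that leave out 1 mouse this difference stayed between -0.64 and -0.41 with an adjusted p of at most 0.0269. Neither gene passed the test of the interaction of genotype and treatment on its own. The interaction was -0.28 for *Dsc1* (SE 0.32, adjusted p = 0.878, edgeR) and 0.24 for *Dsc3* (SE 0.09, adjusted p = 0.355). None of the 10 genes was called for this interaction by edgeR, DESeq2 or limma, against 0.983% of all genes, and *Dsc3* alone had an unadjusted p under 0.05 (0.0143, edgeR). With the mouse as a block, *Dsc3* was called (0.24, adjusted p = 0.0854, edgeR), its fall being smaller in KO. That model called 473 of all genes for the interaction, against 166 without the block.

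**Figure D4:**
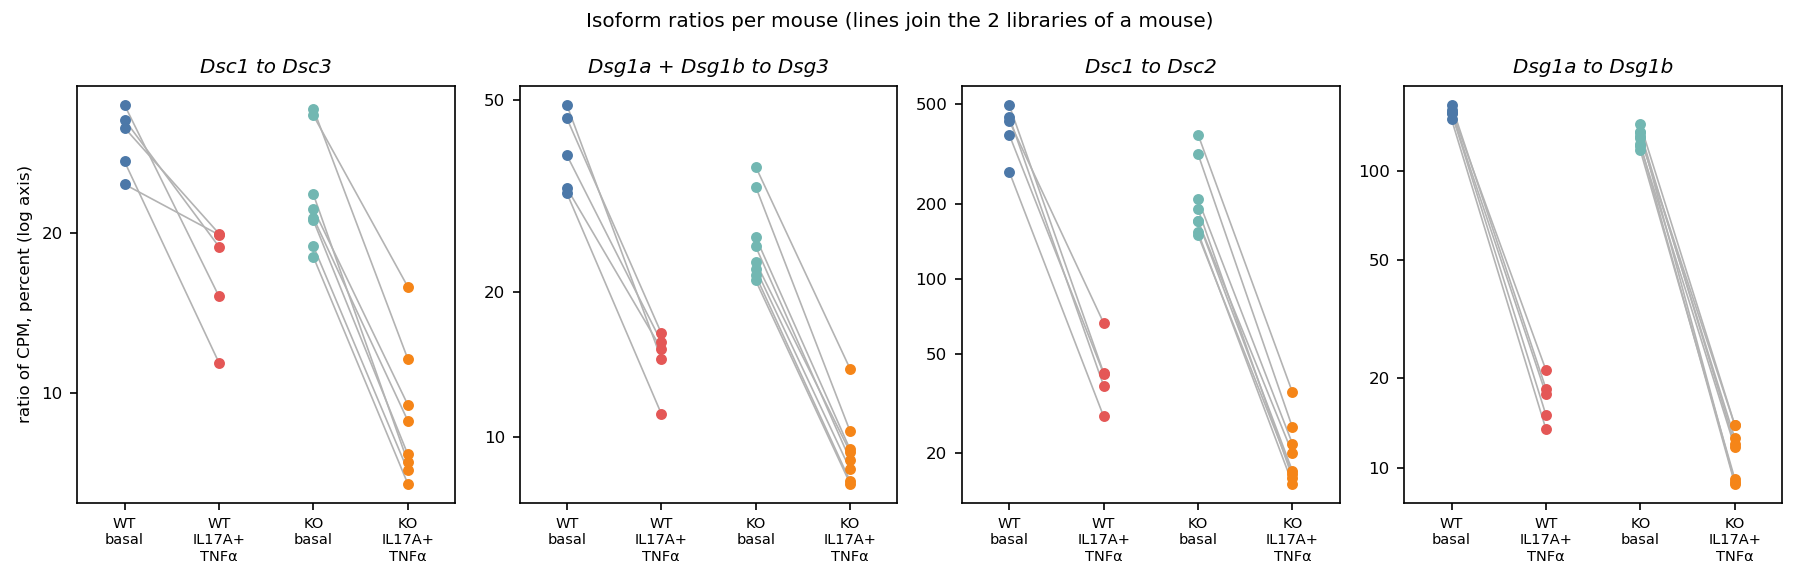
Isoform ratios per mouse as percent on log axes, with lines joining the 2 libraries of each mouse (5 WT, 8 KO). Each of the 4 ratios was lower with IL17A and TNFα in all 13 mice, and the median *Dsc1* to *Dsc3* ratio went from 31.6% to 18.9% in WT and from 21.8% to 8.26% in KO.

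Under basal conditions, KO keratinocytes had less RNA of several desmosome genes than WT keratinocytes, and the suprabasal cadherins differed most. Of the 10 genes, 6 were called lower and 0 higher, against 6.06% and 7.57% of all genes. With a fold change over 1.5, *Dsg1a* and *Dsc1* remained lower, against 1.07% of all genes. *Dsg1a* was 0.82 lower on the log2 scale (SE 0.18, adjusted p = 0.00362, edgeR), and its 8 KO libraries (124 to 225 CPM) lay just below the 5 WT libraries (226.5 to 364 CPM). *Dsc1* differed by -0.74 (SE 0.22, adjusted p = 0.0335) and *Dsg1b* by -0.54 (SE 0.15, adjusted p = 0.0181), with overlapping groups. *Dsc3*, the basal-layer isoform, also differed by -0.42 (SE 0.06, adjusted p = 5.81e-05), and its highest KO level (903 CPM) was below the lowest WT level (949 CPM). Smaller differences were called for *Perp* (-0.25, SE 0.07, adjusted p = 0.0234) and *Pkp1* (-0.11, SE 0.04, adjusted p = 0.0483). *Dsg3* (-0.09), *Dsp* (-0.12), *Jup* (-0.05) and *Dsc2* (0.17) were not called.

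Several of these genotype calls were lost when single mice were left out, with differences of the same sign. Without WT replicate 2, which had the highest *Dsg1a*, *Dsg1b*, *Dsc1*, *Dsc3*, *Dsp* and *Perp* levels of its group, 3 genes were called (*Dsg1a*, *Dsg1b* and *Dsc3*), and *Dsc1* (-0.64, adjusted p = 0.12, edgeR), *Perp* (-0.18, adjusted p = 0.134) and *Pkp1* (-0.09, adjusted p = 0.177) were not. Without both WT replicate 2 and KO replicate 4, only *Dsg1a* (-0.71, adjusted p = 0.0329, edgeR) and *Dsc3* (-0.39, adjusted p = 0.000266) were called. The number of all genes called was 2303 in all libraries, 1690 without WT replicate 2 and 1794 without both mice. *Pkp1* was also not called without WT replicate 4 (adjusted p = 0.159) or KO replicate 5 (0.106), with no filter on low counts (0.103) or when only these 2 groups were fitted (0.175). *Dsp* was called without WT replicate 1 (-0.19, adjusted p = 0.0137) and *Dsg3* without KO replicate 4 (-0.12, adjusted p = 0.0791). In KO under basal conditions the 2 highest levels of *Dsg1a*, *Dsg1b*, *Dsc1* and *Perp* were found in replicates 7 and 8. The same mice had the highest levels of the suprabasal keratins, with 1008 and 1447 CPM of *Krt1* and 723 and 1139 CPM of *Krt10*, against 726 to 902 and 523 to 612 CPM in the other 6 KO mice.

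With IL17A and TNFα, 3 desmosome genes were called lower in KO than in WT and 0 higher, against 1.62% and 1.22% of all genes. The number of all genes called here was 479 and depended strongly on single mice, ranging from 111 (without WT replicate 3) to 2061 (without WT replicate 1) when 1 mouse was left out. *Dsg1a* differed by -1.08 (SE 0.19, adjusted p = 0.00838, edgeR), *Dsc1* by -1.02 (SE 0.23, adjusted p = 0.0228) and *Dsg1b* by -0.53 (SE 0.15, adjusted p = 0.0734). The former 2 also passed the fold threshold, against 0.556% of all genes. All 3 were suprabasal cadherins, and their groups overlapped. KO replicate 8 had the highest KO level of each, at 20.9, 112 and 150 CPM, and for *Dsg1a* it was the only KO library within the WT range. Without this mouse the differences were -1.26, -1.22 and -0.64, and *Dsc3* was called as well (-0.21, adjusted p = 0.0618), while the number of all genes called lower went from 273 to 683. Without WT replicate 2, *Dsg1a* (-1.10, adjusted p = 0.0219, edgeR) and *Dsc1* (-1.03, adjusted p = 0.05335) were still called and *Dsg1b* (adjusted p = 0.159) was not. Without both WT replicate 2 and KO replicate 4, the adjusted p was 0.0376 for *Dsg1a*, 0.0991 for *Dsc1* and 0.226 for *Dsg1b*, which was not called. The number of all genes called was 180 without WT replicate 2 and 121 without both mice. The *Dsg1b* call was lost in 10 of 13 alternatives that leave out 1 mouse (adjusted p up to 0.202), although the difference stayed between -0.64 and -0.48. *Dsc3* was called without WT replicate 1 (adjusted p = 0.0493), where 1002 of all genes were called lower. *Dsc3* in all libraries (-0.18, SE 0.06, adjusted p = 0.168) and the other 6 genes (-0.09 to 0.01) were not called.

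The isoform ratios also differed between genotypes. The *Dsg1* to *Dsg3* ratio was lower in KO by 0.61 on the log2 scale under basal conditions (SE 0.16, exact permutation p = 0.00699, adjusted p = 0.013) and by 0.62 with cytokines (SE 0.13, exact p = 0.00155, adjusted p = 0.013). The *Dsc1* to *Dsc3* ratio was lower in KO by 0.89 with cytokines (SE 0.21, exact p = 0.00544, adjusted p = 0.013). Under basal conditions it was lower by 0.35 (SE 0.15, exact p = 0.0676, adjusted p = 0.0751), a call that was lost in 9 of 13 alternatives that leave out 1 mouse (adjusted p up to 0.157).

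The suprabasal cadherins moved alongside other genes of the suprabasal layers. Of 11 such genes tested, 8 were lower and 0 higher with cytokines in WT, and 9 were lower and 1 higher in KO, against 18% lower and 18.8% higher of all genes in WT and 18.1% and 17.7% in KO. The strongest falls were those of *Krt10* (-4.999 in WT, -5.64 in KO) and *Krt1* (-4.34, -5.01), the keratins of differentiating cells, followed by *Calml3*, a calmodulin-like protein (-2.63, -3.29), and *Flg*, which encodes filaggrin of the granular layer (-2.61, -2.84). The gene that was higher in KO was *Tgm1*, a cornified envelope transglutaminase named after its value was seen (0.40, SE 0.12, adjusted p = 0.0088, edgeR). The summed level of the list was 3572 to 6590 CPM in WT and 2875 to 5917 CPM in KO under basal conditions, and 1031 to 1854 and 930 to 1664 CPM with cytokines. Between genotypes, 3 of the 11 genes were lower in KO under basal conditions (*Krt1* -0.75, *Tgm3* -0.60, *Tgm1* -0.36), against 6.06% of all genes. With cytokines 6 were lower in KO, led by *Krt1* (-1.42), *Krt10* (-1.15), *Lor* (-0.92) and *Calml3* (-0.88), against 1.62% of all genes. The part of cell state in the desmosome results was not tested. The melanocyte list also fell with cytokines in 3 of 5 genes in WT and 5 of 5 in KO, against 18% and 18.1% of all genes. With cytokines 4 of its 5 genes were lower in KO than in WT (*Pmel* -0.57, *Dct* -0.47, *Tyr* -0.43 and *Mlana* -0.38), against 1.62% of all genes. Under basal conditions 0 were called between genotypes. The part of melanocytes was not tested either.

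Basal-layer genes showed no common direction. With cytokines 2 of 8 were higher and 3 lower in WT, and 3 were higher and 3 lower in KO, against the same shares of all genes as above. *Krt15* (-2.25 in WT, -1.76 in KO), *Krt14* (-0.46, -0.45) and *Krt5* (-0.31, -0.31), the keratins of basal cells, were lower, whereas *Itgb1*, an integrin of basal cells, was higher (0.46, 0.36). In KO under basal conditions 3 of the 8 genes were higher than in WT (*Itgb1* 0.18, *Itgb4* 0.17 and *Trp63* 0.16) and 0 lower, against 7.57% and 6.06% of all genes. With cytokines 0 were called between genotypes, against 1.22% higher and 1.62% lower of all genes.

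Other desmosome genes showed no common direction. Of 9 listed, 8 could be tested, since *Dsg4* did not reach the count minimum. With cytokines 2 were higher and 3 lower in WT, and 2 were higher and 4 lower in KO, against the same shares of all genes as above. *Dsg2*, the desmoglein of simple epithelia and proliferating cells, was higher in both (0.57, SE 0.10 in WT and 0.45, SE 0.08 in KO), and *Pkp2* was higher by 0.46 (SE 0.07) in WT and by 0.12 (SE 0.05) in KO. The plakins *Ppl* (-0.65, -0.62) and *Evpl* (-0.51, -0.39), which bind desmosomes and the cornified envelope, were lower in both, and *Pkp3* was lower in KO (-0.19, SE 0.05). In KO under basal conditions *Pkp2* (0.38), *Dsg2* (0.33) and *Pkp4* (0.15) were higher than in WT and *Ppl* (-0.24) was lower. With cytokines *Pkp4* was higher (0.19, SE 0.05, adjusted p = 0.054, edgeR). *Pkp2* was the only gene of this list called for the interaction (-0.34, SE 0.08, adjusted p = 0.0594, edgeR), its rise being smaller in KO.

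Genes of the other cell junctions that were called with cytokines mostly moved the opposite way to the desmosome genes. Over all genes, 18.8% were called higher and 18% lower with cytokines in WT, and 17.7% and 18.1% in KO. Of 10 adherens junction genes, 6 were higher and 0 lower with cytokines in WT, and 5 were higher and 0 lower in KO. The other 4 and 5 were not called, and the median log2 fold change was 0.23 and 0.11. The largest rises were those of *Nectin2* (0.74 in WT, 0.60 in KO), *Afdn* (0.58, 0.55), *Ctnnd1* (0.51, 0.47) and *Ctnna1* (0.32, 0.15), which encode a nectin, afadin and the p120 and alpha catenins. Of 11 tight junction genes, 7 were higher and 1 lower in WT and 8 were higher and 1 lower in KO, with medians of 0.28 and 0.35. The claudins *Cldn7* (2.37 in WT, 2.03 in KO) and *Cldn4* (1.31, 0.86) were higher and *Cldn23* lower (-1.35, -1.30), and the scaffold gene *Tjp1* was higher (0.57, 0.52). Between genotypes under basal conditions, 7.57% of all genes were called higher and 6.06% lower in KO. Of the adherens junction genes, 4 were higher and 1 lower in KO, led by *Nectin4* (-0.40) and *Vcl* (0.25). Of the tight junction genes, 2 were higher and 2 lower, led by *Cldn1* (-0.39), *Ocln* (-0.31) and *Cgn* (0.24). With cytokines 0 genes of either list were called between genotypes, against 1.22% higher and 1.62% lower of all genes.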

How the data were processed

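RNA of 26 keratinocyte cultures was sequenced by the authors as stranded paired-end libraries. Per the labels and the study's methods, the authors aligned reads to mm39 with STAR 2.7.10b, counted them per gene with featureCounts 2.0.6 and a GENCODE annotation, and deposited counts without normalization. A deposited table of log2 normalized counts served here for an alternative only. The authors named DESeq2 for their own tests. The strand setting and the treatment of reads that fit several genes are not given in the sources used here.

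Genes with a mean normalized count over 10 entered edgeR 4.0.16 (R 4.3.3), in which the 4 groups were fitted by quasi-likelihood after TMM scaling, without covariates and with Benjamini-Hochberg adjustment over 16893 genes. Calls used an adjusted p under 0.1. The fold threshold of the study's methods, 1.5, was added where stated. DESeq2 1.42.0 and limma 3.58.1 were alternatives. The edgeR script was tested on simulated data. Standard errors were derived from the log2 fold change and the F statistic. Ratios used counts plus 1 for testing and were tested by exact permutation over mice, with Benjamini-Hochberg adjustment in scipy 1.17.1. Both libraries of a replicate number come from the same mouse, and their deviations from the group means correlated at 0.000509 to 0.254 (median 0.106), so the mouse as a block was an alternative. Replicates always differed by more than sampling noise (lowest chi-square per degree of freedom 7.287).

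Levels per length used the union of exons in GENCODE vM39 on GRCm39, the build named mm39 in the labels, and promoter windows were read from that genome. The 10 genes were chosen, and the marker and junction lists written, with earlier results of these data known. All 10 genes are named in the comparisons of treatment and in that of genotype under basal conditions. Between genotypes with cytokines, most genes that were not called are given as a range. For the interaction only some of the 10 are named. Of each list and comparison, at most 4 genes are named, the called genes of largest absolute log2 fold change whose mean normalized count was over 100, and their values are given for both genotypes. *Tgm1* in KO, the Merkel cell, endothelial and melanocyte genes and *Krt1* and *Krt10* of single mice were named after their values were seen. A gene and a sequence that this rule or the promoter search would name are not reported here. At these depths counting error is small beside the spread between mice.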

Additional observations from a re-analysis of the deposited data

Results flagged for a closer look

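Among 48 groups of values tested for a single library far from the rest, 4 were found, and chance flags about 1 group in 20. KO replicate 8 with IL17A and TNFα lay above its group for *Dsg1a* (20.9 CPM, against 6.96 to 12.8 CPM in the other 7 mice), for *Dsg1b* (150 CPM) and for the log2 ratio of *Dsg1* to *Dsg3* (-2.85). The same library lay apart in the principal component analysis, and its *Krt10* level (23.0 CPM) was the highest of its group. WT replicate 1 with cytokines lay below its group for *Dsg1b* (98.5 CPM, against 141 to 158 CPM in the other 4 mice).

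The effect of cytokines differed between genotypes for *Pkp2* (interaction -0.34, SE 0.08, adjusted p = 0.0594, edgeR) and for the *Dsc1* to *Dsc3* ratio (-0.54 on the log2 scale, exact permutation p = 0.00466, adjusted p = 0.013). *Pkp2* was higher with cytokines in 5 of 5 WT mice and in 7 of 8 KO mice. The ratio was lower with cytokines in 5 of 5 WT and 8 of 8 KO mice.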

How the results depend on the processing

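With a fold change over 1.5 added to the adjusted p, the number of desmosome genes called with cytokines was 5 in WT and 3 in KO, and 2 between genotypes under basal conditions. On the adjusted p alone, 6 genes were called between genotypes under basal conditions. This count was 2 without WT replicate 2 and KO replicate 4 together and ranged from 3 to 7 with 1 mouse left out. Over all genes, 2303 were called in all libraries, 1794 without these 2 mice and 1661 to 3249 with 1 mouse left out. When the mouse was a replicate block, the counts with cytokines were the same in WT and KO, and 1 gene (*Dsc3*) was called for the interaction. Over all genes, this block raised the number called for the interaction from 166 to 473. Without WT replicate 2 and KO replicate 4, the *Dsc1* to *Dsc3* ratio changed by -0.76 with cytokines in WT (adjusted p = 0.156) and by -0.28 between genotypes under basal conditions (adjusted p = 0.219), and the *Dsg1* to *Dsg3* ratio by -1.35 with cytokines in WT (adjusted p = 0.156), all by exact permutation. With 1 mouse left out these ranged from -0.98 to -0.74, from -0.43 to -0.30 and from -1.51 to -1.35. With 4 WT mice the exact test of a change with cytokines in WT cannot pass the threshold. This limit does not hold for the comparison between genotypes. The interaction for the *Dsg1* to *Dsg3* ratio ranged from -0.09 to 0.068 with 1 mouse left out, was -0.11 without both mice and -0.42 with *Dsg1a* alone (adjusted p = 0.0533). It was not called with *Dsg1b* alone. Scaling by coding exons kept 6 of 10 ranks of the levels per length.

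Signs turned only for log2 values near 0 that were not called. Without WT replicate 2 and KO replicate 4 these were *Dsg3* with cytokines in KO (0.0182), *Jup* between genotypes under basal conditions (0.00297), and *Dsc2* (0.000501) and *Dsp* (0.00064) between genotypes with cytokines. With 1 mouse left out, *Dsg3* with cytokines in KO ranged from -0.063 to 0.019, *Jup* under basal conditions from -0.080 to 0.00061, *Dsg3* between genotypes with cytokines from -0.0064 to 0.041 (the latter without both mice), *Dsc2* there from -0.12 to 0.0059 and *Dsp* there from -0.066 to 0.00064 (the latter without both mice). The interaction of *Dsg1b* was -0.0045 by limma, -0.0054 with the replicate block, -0.032 without both mice and -0.059 to 0.089 with 1 mouse left out, and that of *Jup* ranged from -0.064 to 0.011. Of the comparisons of a single gene with an alternative, 968 kept direction and call, 30 lost the call, 5 gained it and 17 turned sign.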
